A study of Homo sapiens with 4 samples.

Results

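The long noncoding RNAs whose symbols are LINC followed by digits were taken from the deposited table of normalised gene counts. The table lists 202 such symbols, and in 154 of them 2 or more of the 4 libraries reached a value of 10. LINC00458 and LINC01108 were left out of the set, which leaves 152 members among the 15721 genes that passed the same level filter. The members were thus chosen by name and level, and 48 further LINC symbols stayed below the filter. The libraries come from H1, a line of human embryonic stem cells in wide use, grown in the defined medium E8. One group is unmodified H1 (WT, 2 libraries). The other is H1 given MEK5DD by lentivirus and then selected with puromycin (MEK5DD, 2 libraries from 1 line). MEK5DD is a form of the kinase MAP2K5 (MEK5) with 2 amino acids changed to aspartate. MEK5 is the kinase that phosphorylates MAPK7 (ERK5).

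LINC symbols are handed out in number order to long transcripts that lie between protein-coding genes and have no name for a function. Many are spliced and carry a poly(A) tail like messenger RNA, and they are usually less abundant and more restricted to a cell type than coding transcripts. Some lie beside genes of developmental transcription factors and are transcribed away from them, and a few were later found to encode small proteins or to host small RNAs and were then renamed. The RNA here was selected by its poly(A) tail, so transcripts without one are not measured.

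MAP2K5 was read at 344 and 315 normalised reads in WT and at 3382 and 3558 in MEK5DD, which checks the labels (limma log2 fold change 3.40, SE 0.08, adjusted p = 5.91e-11). The libraries held 14908486 to 17628945 recovered reads, and the members together took 0.121% to 0.130% of the summed values. No sample received lentivirus and puromycin but not MEK5DD, so delivery, selection and subline cannot be told apart from MEK5DD. The labels do not say that the libraries of a group came from separate cultures, and p-values then measure only the spread between libraries, which may be technical. Of the markers of other cell types, 2 of 3 tested mesoderm genes and 2 of 3 tested fibroblast genes rose in MEK5DD. Of 4 tested neuroectoderm genes 3 fell and 1 rose, and of 2 tested trophoblast or amnion genes 1 rose and 1 fell. The only tested endoderm gene, CXCR4, was at 21.1 and 19.8 in WT and 5.45 and 11.96 in MEK5DD and did not pass the test. Summed mesoderm markers stood at 2772 to 2856 in WT and 5550 to 5832 in MEK5DD, and summed fibroblast markers at 6941 to 7026 and 8038 to 8359. TBXT, MESP1, SOX17, FOXA2, GATA6, DCN, LUM, CDX2, ISL1 and HAND1 are not listed in the table under these symbols. This does not show that they are absent, since a gene may be listed under another name. The 8 pluripotency markers summed to 110550 to 119267, with 1 higher and 1 lower. The part of these genes in the results on LINC members was not tested. In bulk RNA, fewer cells of a type and less RNA per cell cannot be told apart.

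Of the 152 members, 10 passed the test between MEK5DD and WT, 5 higher and 5 lower in MEK5DD. That is 6.58% of the members, against 14.2% of all genes tested (limma, adjusted p under 0.05 over all 15721 genes). In each direction the members' share was 3.29%, against 7.69% of all genes for higher and 6.47% for lower values. The members that rose were LINC01356, LINC01139, LINC00664, LINC00960 and LINC00337. Those that fell were LINC01918, LINC01833, LINC00937, LINC01238 and LINC02210. Of these 10, 8 differed by at least 2-fold, which is 5.26% of the members against 2.44% of all genes. They were 4 higher and 4 lower, 2.63% of the members each way, against 1.32% and 1.12% of all genes.

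For 4 of the 5 members that stayed called whichever library was left out, a start-site window is listed, and these windows are shown so that the sequence at the start of each transcript can be set beside its values. Each runs from 250 bases before to 50 bases after the start listed by RefSeq in GRCh38.p14, 5′ to 3′ on the strand of the transcript, and capitals mark GGGCGGG (the GC box bound by SP-family factors) or its reverse complement. LINC01356 is read from chr1:112850594-112850893 (minus strand), LINC01833 from chr2:44939150-44939449 (minus strand), LINC00337 from chr1:6235990-6236289 (plus strand) and LINC00664 from chr19:21483465-21483764 (plus strand). The windows of LINC00337 and LINC00664 lie inside the GENCODE gene bodies, downstream of the GENCODE starts. Where RefSeq lists several starts for a gene, as for LINC01833, the first listed was used.
LINC01356: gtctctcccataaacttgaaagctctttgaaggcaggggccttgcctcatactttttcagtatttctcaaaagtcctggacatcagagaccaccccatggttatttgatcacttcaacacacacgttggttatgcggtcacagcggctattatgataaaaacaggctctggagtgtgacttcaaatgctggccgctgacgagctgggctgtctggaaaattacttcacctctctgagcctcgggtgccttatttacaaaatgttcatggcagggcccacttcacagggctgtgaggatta
LINC01833: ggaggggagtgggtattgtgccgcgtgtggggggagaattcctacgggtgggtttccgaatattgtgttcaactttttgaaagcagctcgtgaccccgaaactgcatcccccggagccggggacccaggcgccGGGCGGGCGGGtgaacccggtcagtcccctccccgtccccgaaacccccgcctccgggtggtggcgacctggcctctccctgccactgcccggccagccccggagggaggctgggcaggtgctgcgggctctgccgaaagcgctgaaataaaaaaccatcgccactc
LINC00337: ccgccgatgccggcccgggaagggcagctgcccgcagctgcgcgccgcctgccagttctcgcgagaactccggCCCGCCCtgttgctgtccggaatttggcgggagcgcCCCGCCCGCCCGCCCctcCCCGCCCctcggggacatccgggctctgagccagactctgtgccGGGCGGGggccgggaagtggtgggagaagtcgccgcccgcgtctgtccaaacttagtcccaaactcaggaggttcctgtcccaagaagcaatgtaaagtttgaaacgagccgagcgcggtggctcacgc
LINC00664: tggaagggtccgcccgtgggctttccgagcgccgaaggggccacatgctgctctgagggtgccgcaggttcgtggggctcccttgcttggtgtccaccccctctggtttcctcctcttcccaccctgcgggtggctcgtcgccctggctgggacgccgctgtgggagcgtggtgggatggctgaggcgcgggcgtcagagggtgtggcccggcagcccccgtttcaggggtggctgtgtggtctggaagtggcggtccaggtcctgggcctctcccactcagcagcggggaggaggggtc

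The windows differ in composition. The LINC01356 window has 47.7% G and C and 6 CpG dinucleotides, whereas the other windows have 66.3% (LINC01833), 69.7% (LINC00337) and 70.3% (LINC00664), with 24, 33 and 20 CpG. Searched on both strands were 6 patterns, namely TATAAA (start-site element bound by TBP), ATGCAAAT (octamer of POU factors), TGANTCA (AP-1), the MEF2-type element, GGGCGGG (GC box) and CCGGAAG (ETS type). Matches of 1 pattern that overlap were each counted. LINC00337 held 6 matches and LINC01833 held 2, each to GGGCGGG, and LINC01356 and LINC00664 held no match to any of the 6 patterns. RefSeq lists a window for 107 of the 152 members and for 7 of the 10 that passed the test. GGGCGGG occurred in 32.7% of the member windows and 32.9% of the 27305 windows of all genes, and TATAAA in 16 of 107 and 3264 of 27305. CCGGAAG was found in 13.1% and 10.7%, TGANTCA in 6.54% and 7.76%, the MEF2-type element in 3.74% and 2.83%, and ATGCAAAT in 0.935% and 1.80%. The members' windows therefore held these letters about as often as those of all genes, with a median G and C content of 59.3% against 58.3%. A match describes the letters only and is no evidence of binding.

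LINC01356 had the highest fold among the members. Its normalised read count was 106 and 90.6 in WT and 444 and 458 in MEK5DD. Both MEK5DD libraries lay far above both WT libraries, and the 2 libraries of each group were close together. The mean went from 98.2 ± 10.7 (SD, n = 2) to 451 ± 9.998 (SD, n = 2), a 4.58-fold rise (log2 difference 2.19, SE 0.13, limma adjusted p = 4.04e-07). LINC01356 (ENSG00000215866.7) lies on chromosome 1, 112820170 to 112850643 on the minus strand of GRCh38, between genes. The nearest protein-coding gene, SLC16A1, encodes a monocarboxylate transporter, lies 61204 bases away and had a log2 fold change of -0.14 (adjusted p = 0.163). Within 500 kb of LINC01356, 2 of 10 tested genes were called, against 14.2% of all genes. The RNA helicase gene MOV10 fell (log2 fold change -0.47, adjusted p = 0.00189) and the small GTPase gene RHOC rose (0.42, adjusted p = 0.0123).

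LINC01139 was read at 30.0 and 30.2 in WT and at 72.7 and 102 in MEK5DD. The WT libraries were almost equal, and both MEK5DD libraries were higher, though they differed from each other. The rise on the log2 scale was 1.48 (SE 0.23, adjusted p = 0.00116). LINC01139 (ENSG00000215808.3, chromosome 1, 238476542 to 238486054, minus strand) stands in a stretch with 0 tested genes within 500 kb.

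LINC00664 and LINC00960 were low in WT and rose in MEK5DD beside zinc finger genes that were not called. LINC00664 stood at 14.1 and 24.0 in WT and 46.3 and 54.8 in MEK5DD (log2 fold change 1.41, SE 0.31, adjusted p = 0.00961). LINC00960 stood at 19.4 and 13.5 in WT and 34.5 and 39.9 in MEK5DD (1.15, SE 0.31, adjusted p = 0.0287). For both, the lowest MEK5DD library was above the highest WT library. LINC00664 (ENSG00000268658.5, chromosome 19, 21483374 to 21503238, plus strand) shares 192 exon bases with ZNF429 on the same strand, and ZNF429 had a log2 fold change of 0.28 (adjusted p = 0.168). LINC00960 (ENSG00000242516.1, chromosome 3, 75672391 to 75679303, plus strand) shares 319 exon bases with ZNF717 on the other strand, whose log2 fold change was 0.20 (adjusted p = 0.353). ZNF429 and ZNF717 belong to large families of similar zinc finger genes, and no source used here gives how reads in shared or near-identical exons were counted, which makes both members uncertain. None of the 13 tested genes within 500 kb of LINC00664, nor of the 5 around LINC00960, was called by limma, against 14.2% of all genes.

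LINC00337, which RefSeq now names ICMT-DT for its start beside ICMT, was read at 117 and 110 in WT and at 189 and 165 in MEK5DD. Both MEK5DD libraries were above both WT libraries (log2 fold change 0.63, SE 0.14, adjusted p = 0.0111). LINC00337 (ENSG00000225077.3) lies on chromosome 1, 6234692 to 6239444 on the plus strand, and 89 of its exon bases are shared with ICMT, the gene of a methyltransferase for prenylated proteins. ICMT itself was read at 3623 and 3448 in WT and 3276 and 3299 in MEK5DD, with a log2 fold change of -0.10 (adjusted p = 0.306). No source used here gives how reads in the shared bases were counted, which makes LINC00337 uncertain too. Of 19 tested genes within 500 kb, 5 were called, in both directions, against 14.2% of all genes. HES3, a HES-family repressor gene 4748 bases beyond LINC00337, fell from 610 and 666 to 382 and 358 (log2 fold change -0.78, adjusted p = 0.000189). HES2, of the same family and farther along, rose from 32.6 and 36.4 to 91.8 and 96.7 (1.42, adjusted p = 0.000623). ACOT7 (0.32), ESPN (0.53) and PLEKHG5 (0.46) also rose.

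Among the members that fell, LINC01833 had the lowest adjusted p. It was read at 298 and 293 in WT and at 121 and 109 in MEK5DD. The groups were well apart and the libraries within each were close. The mean went from 295 ± 3.56 (SD, n = 2) to 115 ± 8.64 (SD, n = 2), so that log2 fell by 1.36 (SE 0.13, limma adjusted p = 2.42e-05). LINC01833 (ENSG00000259439.2, chromosome 2, 44921077 to 44939199, minus strand) starts 2699 bases from the start of SIX3 and is transcribed away from it. SIX3 is a homeobox transcription factor gene of the anterior neural plate and the eye.

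The genes around LINC01833 did not all move with it. SIX3 (44941898 to 44946077, plus strand) fell from 399 and 388 in WT to 168 and 171 in MEK5DD (log2 fold change -1.21, SE 0.11, adjusted p = 1.84e-05). SIX3-AS1, which lies between the starts of LINC01833 and SIX3, was read at 20.3 and 29.2 in WT and at 12.7 and 8.97 in MEK5DD (-1.11, SE 0.38, adjusted p = 0.0742), so its groups did not overlap but it missed the threshold. AC012354.1, downstream of SIX3, was at 42.3 and 47.9 against 31.8 and 21.9 (-0.75, adjusted p = 0.0931). SIX2, the next homeobox gene, was at 25.5 and 24.0 against 41.8 and 40.9 (0.72, adjusted p = 0.0891), with higher values in both MEK5DD libraries. The flanking genes CAMKMT and SRBD1 had log2 fold changes of -0.01 and -0.12. LINC01833, SIX3-AS1, SIX3, AC012354.1 and SIX2 share no exon bases in GENCODE v29. Of the 4 tested neuroectoderm markers, SOX1 (log2 fold change -2.41), OTX2 (-0.85) and ZIC1 (-0.77) fell as SIX3 did and NES rose (0.35), with a median of -0.81 over the 4. Their sum was 8304 to 8469 in WT and 8911 to 9486 in MEK5DD, and most of it is NES, at 6178 and 6346 in WT and 8240 and 7717 in MEK5DD. The part of these markers in this result was not tested.

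**Figure D1:**
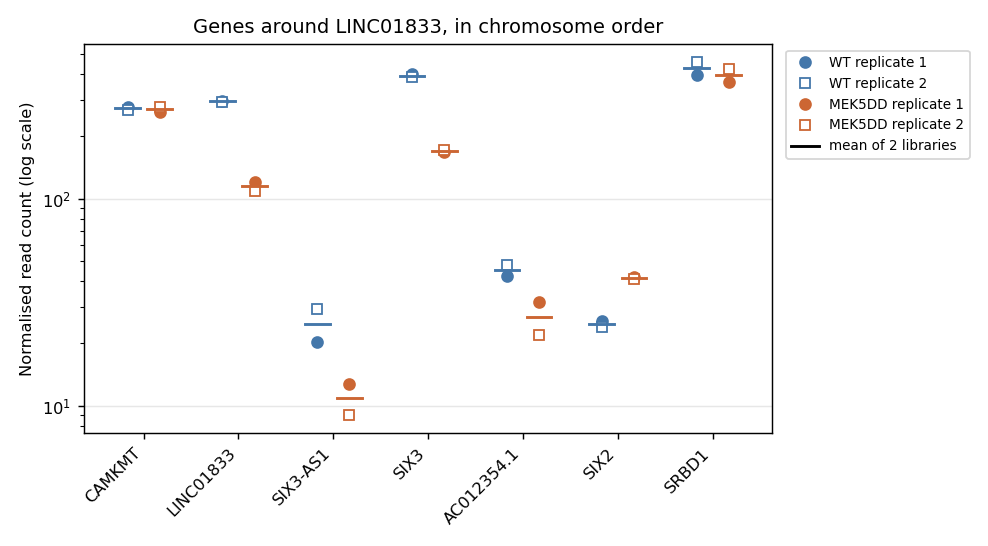
Normalised read count (log scale) of LINC01833 and the listed genes around it, in chromosome order, with 1 point per library and a bar at the mean of 2 libraries. LINC01833 and SIX3 are lower in both MEK5DD libraries, while CAMKMT and SRBD1 at the ends have overlapping groups.

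The other members that fell were read at lower levels or changed less. LINC00937 was at 86.3 and 64.6 in WT and at 34.5 and 33.9 in MEK5DD (log2 fold change -1.10, SE 0.23, adjusted p = 0.00656). LINC01238 was at 31.7 and 33.3 in WT and at 14.5 and 16.0 in MEK5DD (-1.05, SE 0.31, adjusted p = 0.0405). LINC01918 was at 27.3 and 31.2 in WT and at 15.4 and 5.98 in MEK5DD (-1.50, SE 0.43, adjusted p = 0.0372). The groups were apart for each of them, and the MEK5DD libraries of LINC01918 were far from each other. LINC02210 was read at 660 and 610 in WT and at 508 and 493 in MEK5DD, a small but separate fall (-0.34, SE 0.09, adjusted p = 0.0226).

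LINC00937 (ENSG00000226091.7) lies on chromosome 12, 8295986 to 8396803, minus strand. Of 13 tested genes within 500 kb of it 4 were called: the pluripotency factor gene NANOG (log2 fold change 0.26), the glucose transporter gene SLC2A14 (0.52) and the forkhead gene FOXJ2 (0.40) rose, and the noncoding AC092490.1 fell (-0.24). LINC01918 (ENSG00000226508.1, chromosome 2, 105144113 to 105145424, plus strand) is 44153 bases from MRPS9, a mitochondrial ribosomal protein gene with a log2 fold change of 0.12 (adjusted p = 0.366). Of 5 tested genes within 500 kb of LINC01918, 2 were called and both fell: TGFBRAP1, whose product binds TGF-beta receptors (-0.42, adjusted p = 0.00946), and the LIM-domain gene FHL2 (-0.47, adjusted p = 0.038). LINC02210 (ENSG00000204650.14, chromosome 17, 45620328 to 45655156, plus strand) has the GENCODE type transcribed unitary pseudogene rather than a long noncoding type. Of 13 tested genes within 500 kb of LINC02210, 3 were called: the phospholipase gene PLCD3 (0.40) and the tau gene MAPT (0.68) rose, and the chromatin regulator gene KANSL1 fell (-0.37). Beside 14.2% of all genes called, the genes around LINC00937, LINC01918 and LINC02210 are too few to read as a difference. LINC01238 has no unique GENCODE v29 entry, and RefSeq places it on chromosome 2.

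**Figure D2:**
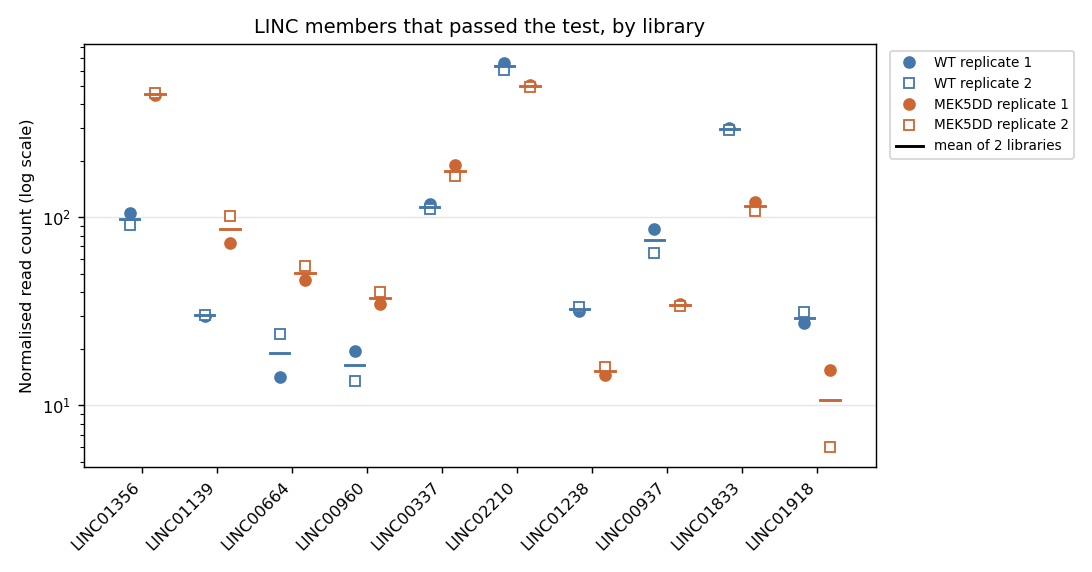
Normalised read count (log scale) of the 10 members that passed the test, with 1 point per library and a bar at the mean of 2 libraries. In each of them the WT and MEK5DD points do not overlap, as in 56.2% of all genes tested, and the gap is widest in LINC01356 and narrow in LINC02210.

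The calls differed in how far they rested on 1 library. LINC01356, LINC01833, LINC01139, LINC00664 and LINC00337 were called in each of the 4 fits that left out 1 library, which is 3.29% of the members against 5.51% of all genes. Without WT replicate 1, LINC00937 (adjusted p = 0.0772), LINC01238 (0.176), LINC01918 (0.0582) and LINC02210 (0.307) lost their calls. Without WT replicate 2, LINC00960 (0.167), LINC01238 (0.239), LINC01918 (0.136) and LINC02210 (0.0893) did so, and without MEK5DD replicate 2 LINC01918 did (0.0863). With 1 variance for every level instead of a mean-variance trend, LINC00337 (0.0732), LINC00664 (0.0931), LINC00937 (0.0619), LINC00960 (0.0774), LINC01918 (0.169) and LINC02210 (0.131) missed the threshold. By DESeq2 on recovered reads, LINC00960 (0.153), LINC01238 (0.222), LINC01918 (0.142) and LINC02210 (0.0708) missed it. LINC01356, LINC01833 and LINC01139 kept their calls in each of these fits.

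The 142 members that were not called had log2 fold changes from -1.40 to 1.34, with a median of 0.03. Of them, 26 had an unadjusted p under 0.05, so that 36 of the 152 members (23.7%) did, against 27.8% of all genes. The values of WT and MEK5DD did not overlap in 74 members (48.7%, of which 41 higher and 33 lower in MEK5DD), against 56.2% of all genes. Across the 152 members the median log2 fold change was 0.03 (quartiles -0.22 and 0.30), and over all genes it was -0.0023. The median absolute log2 fold change was 0.26 for the members and 0.17 for all genes.

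The members were read at lower levels than most genes, and their libraries were further apart. The median of the mean normalised read count was 37.8 for members and 293 for all genes tested, and the median SE of the log2 fold change was 0.27 against 0.12. Within the WT pair the median absolute log2 difference was 0.22 for members and 0.10 for all genes, and within the MEK5DD pair 0.27 and 0.15. When genes were split by level, the called share was 4.55% of 88 members against 5.68% of all genes with a mean under 50. It was 6.98% of 43 members against 15.6% with a mean from 50 to under 200, and 14.3% of 21 members against 16.9% with a mean of at least 200. In each range the members' share lay below that of all genes, by 1 to 9 percentage points, and these shares rest on 4, 3 and 3 called members. For calls of at least 2-fold the shares were 4.55% of members against 4.74% of all genes in the lowest range, 4.65% against 4.0% in the middle and 9.52% against 0.995% in the highest. The last of these rests on 2 members, LINC01356 and LINC01833.

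**Figure D3:**
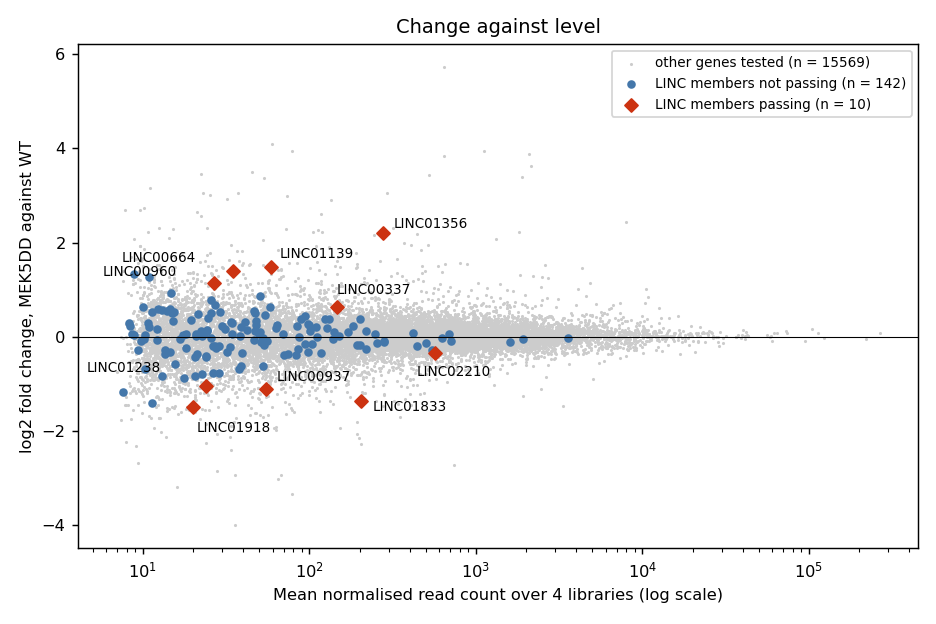
Log2 fold change of MEK5DD against WT against the mean normalised read count (log scale) for all 15721 genes tested, with LINC members in colour. The members lie mostly at low levels, around the median of 37.8, and the 10 that passed are named.

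Several members were abundant and did not pass the test. Per kilobase of exon, LINC00678 stood highest, with a mean of 3060 normalised reads per kilobase over the 4 libraries. It was read at 3568 and 3637 in WT and at 3405 and 3649 in MEK5DD, where the groups overlapped (log2 fold change -0.03, SE 0.06, adjusted p = 0.799). LINC00678 (ENSG00000254934.5) lies on chromosome 11, 27617626 to 27634627, minus strand, near the neurotrophin gene BDNF. The next levels per kilobase were LINC01194 (270), LINC00665 (222), LINC01224 (208), LINC01315 (174) and LINC01356 (151), averaged over the 4 libraries. LINC01194 ranged from 384 to 588 normalised reads over the 4 libraries, so its place above LINC00665 and LINC01224 lies within its spread. LINC01356 alone among these 6 passed the test: it ranked 20 of the 136 members with a known length in WT and 3 in MEK5DD, at 53.8 and 248 reads per kilobase.

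Members as a whole had a median of 14.4 normalised reads per kilobase of exon, against 78.3 for protein-coding genes. Their median exonic length was 3132 bases in 5 merged exon blocks, against 5216 bases for protein-coding genes. GENCODE v29 gives 106 of the members the type lincRNA, 13 processed transcript and 9 antisense, and 16 have no unique entry.

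**Figure D4:**
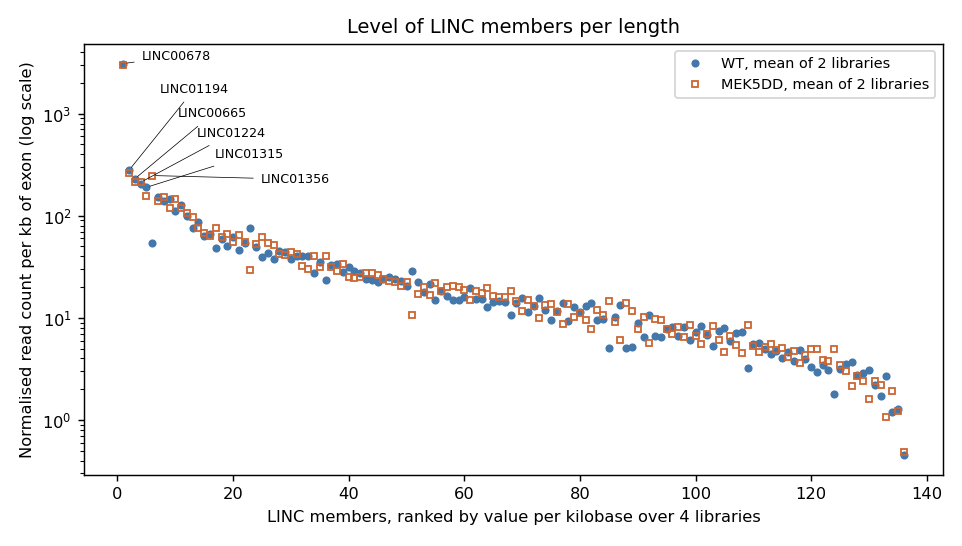
Normalised read count per kilobase of exon (log scale) for the 136 members with a known exonic length, ranked by the mean over 4 libraries, with 1 point for the mean of each group. LINC00678 stands above the rest, and LINC01356 shows the widest gap between WT and MEK5DD among the 6 highest.

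Members that have since been given another name were counted by that name. RefSeq lists 7 of them as protein-coding, and none was called (log2 fold changes -0.88 to 0.94, lowest adjusted p = 0.172). Against 14.2% of all genes called, 0 of 7 is too few members to read as a difference. LINC00998 (SMIM30), which encodes a small membrane protein, was at 632 and 627 in WT and 618 and 615 in MEK5DD (-0.03, adjusted p = 0.856). LINC00116 (MTLN), which encodes a mitochondrial micropeptide, was at 113 and 110 against 115 and 107 (-0.01, adjusted p = 0.981). The WT and MEK5DD values of these transcripts lay close together, and those of LINC00116 overlapped. RefSeq names 4 members as hosts of small RNAs, and none was called, a number too small to read against the same 14.2%. Among these LINC00599 (MIR124-1HG, a host of miR-124) was at 605 and 596 in WT and 448 and 536 in MEK5DD (-0.29, adjusted p = 0.0754), lower in both MEK5DD libraries. Of 6 members now named as divergent transcripts of a coding gene, 1 was called, LINC00337. Beside 14.2% of all genes, 1 of 6 is too few to read as a difference. The others had log2 fold changes from -0.84 (LINC00982) to 0.50 (LINC01184).

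Of a list of 22 LINC genes that have been studied elsewhere, 10 are members, 4 were below the level filter and 8 are not listed under their LINC symbols. This does not show that those 8 are absent, since a renamed gene may be listed under its newer name. None of the 10 was called, against 14.2% of all genes, and 10 members are too few to read as a difference. LINC00665 was at 1688 and 1625 in WT and 1552 and 1519 in MEK5DD (log2 fold change -0.11, adjusted p = 0.333), and LINC00294 at 213 and 195 against 195 and 167 (-0.17, adjusted p = 0.440). LINC00467 (0.21), LINC00339 (0.06), LINC00667 (-0.09) and LINC01405 (0.39) had adjusted p from 0.171 to 0.824. LINC01021, known as the p53-induced PURPL, was at 418 and 388 in WT and 345 and 528 in MEK5DD (0.08, adjusted p = 0.784), where the MEK5DD libraries lay on either side of WT.

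Other members too had MEK5DD libraries on either side of WT or far apart. Among members with a mean of at least 50 the MEK5DD pair differed most in LINC00630 (44.5 and 78.7), LINC01876 (59.1 and 98.7) and LINC00992 (86.3 and 55.8). The WT pair of these stood at 93.4 and 65.6, 92.5 and 90.6, and 39.6 and 49.99. In 86 of the 152 members the MEK5DD pair was further apart than the WT pair. Over all genes tested, too, the median absolute log2 difference was larger within the MEK5DD pair (0.15) than within the WT pair (0.10).

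Around the level filter, LINC00672 stayed outside with a second-highest value of 9.99, as did LINC01144, LINC00461 and LINC02367 at 9.97. LINC01545, LINC00598, LINC01670 and LINC01152 were just inside at 10.4, and LINC02043, LINC01091 and LINC00854 at 10.57. Of the members, 3 reached 10 only in the 2 WT libraries (LINC01018, LINC01152 and LINC02187) and 4 only in the 2 MEK5DD libraries (LINC00240, LINC00638, LINC02204 and LINC02428). None of these 7 was called, beside 14.2% of all genes and 5.68% of genes with a mean under 50. The 7 are too few to read as a difference. LINC02187 was at 20.3 and 13.5 in WT and 4.54 and 6.98 in MEK5DD (adjusted p = 0.0709). LINC02428 was at 6.17 and 3.12 in WT and 10.9 and 14.9 in MEK5DD (adjusted p = 0.123). The LINC genes left out of the set were both higher in MEK5DD. LINC00458 went from 29.1 and 35.4 to 205 and 198 (log2 fold change 2.62, limma adjusted p = 1.78e-06). LINC01108 went from 632 and 636 to 2756 and 3226 (2.23, adjusted p = 6.3e-09). Both changes were larger than that of any member. The members' shares do not include these genes, while the shares of all genes do.

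Other noncoding names in the same fit were counted beside the LINC members. Of 1359 tested genes with a long noncoding type in GENCODE v29, LINC members included, 79 (5.81%) passed the test, against 15.8% of 13082 protein-coding genes. Of the LINC members with such a type, 8 of 131 (6.11%) passed. Among names ending in -AS, which mark antisense transcripts, 16 of 300 passed (5.33%), with 2.33% higher and 3.0% lower in MEK5DD. Among small nucleolar RNA host genes (SNHG) 1 of 20 was higher (5.0%), and among miRNA host genes 3 of 14 passed (21.4%), with 7.14% higher and 14.3% lower. These shares were not tested against each other.

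Position was compared with the nearest protein-coding gene. Of the members, 100 lie apart from that gene at a median gap of 33.7 kb, 28 overlap it and 8 start close to it and run away from it. For the 101 members whose nearest coding gene was tested, 53 (52.5%) had a fitted change of the same sign, against 54.8% over 11580 genes. Across these members Pearson's r between the changes was 0.09 and Spearman's rho 0.15, a description over genes that share the same 4 libraries. Of the nearest coding genes of members 15.8% were called, against 14.3% for all genes. Of 6 called members with a tested neighbour, 1 had a neighbour called in the same direction, which is LINC01833 with SIX3, and 5 had one that was not called. Over all called genes with a tested neighbour the same direction was found in 13.4%.

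The 8 members that run away from a coding gene start 141 to 2699 bases from it. Of their 8 coding neighbours 3 were called (37.5%), against 11.4% for the 1019 tested genes placed in this way. LINC01833 and SIX3 were the pair in which both were called. Among 111 called genes placed in this way, 20.7% had a neighbour called in the same direction. The 8 pairs are too few to read as a difference. They do not include LINC00337, a called member that RefSeq names as divergent from ICMT but that overlaps ICMT in GENCODE v29. ICMT was not called (limma adjusted p = 0.306). KMT2E, a chromatin regulator gene beside LINC01004, fell (log2 fold change -0.38, adjusted p = 0.0416) and PATZ1, a zinc finger gene beside LINC01521, fell (-0.24, adjusted p = 0.0335), while LINC01004 and LINC01521 were not called. Other neighbours were called where the member was not. PAM, which encodes an enzyme of peptide amidation, rose with a log2 fold change of 1.38 beside LINC00491 (0.05). CTNND2, of the delta-catenin family, fell with -0.89 beside LINC01194 (-0.13), and the transcription factor gene SOX9 fell with -0.54 beside LINC01152 (-1.18, adjusted p = 0.168).

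**Figure D5:**
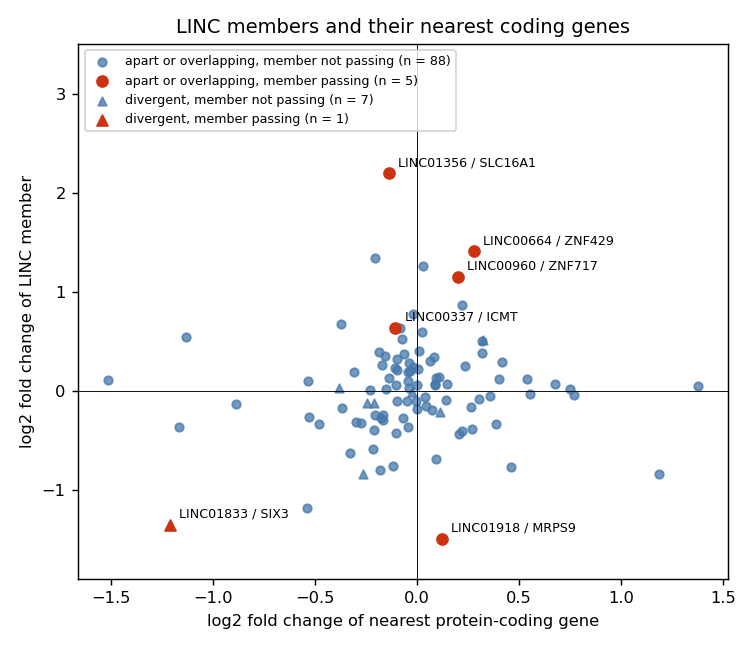
Log2 fold change of 101 LINC members (vertical axis) against that of the nearest protein-coding gene (horizontal axis), with triangles for members that run away from the coding gene. The points form no line, and LINC01833 with SIX3 is the named pair at the lower left.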

How the data were processed

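Poly(A) RNA of H1 cells was sequenced as paired-end reads, per the labels' protocols. The deposited table holds signal: gene counts normalised by the authors, for 17472 genes and 4 libraries. The submitters' processing notes list hg38, featureCounts 1.5.3, DESeq2 1.26.0, STAR and Trimmomatic 0.36, without roles. Annotation and strand setting are not stated in the sources used here. Reads of overlapping antisense genes may not be separable. Within a library, values are whole multiples of its smallest one (0.881, 1.04, 0.909 and 0.997; largest departure 0.000121), which gave recovered reads; the design assumed normalised values and the main test was kept on them.

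The test was limma 3.58.1 (R 4.3.3), fitted with a trend of variance on level to log2(value + 1) of the 15721 genes that reached 10 in 2 or more libraries. Fold changes on that scale understate changes of low genes. Two-sided p-values were adjusted (Benjamini-Hochberg) across all tested genes, and those under 0.05 were called. The labels name no batch. The procedure was tested on simulated data with an assumed spread. Only genes with a mean of at least 50 were given a change there, so it does not cover changes in the 88 members with a mean under 50. Locations, lengths and neighbours came from GENCODE v29 (GRCh38), matched by symbol for 97.5% of listed genes, and names and start windows from RefSeq (GRCh38.p14). A spreadsheet had turned 23 symbols into dates.

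The members, lists and tests were chosen with earlier results of these data known. Named members were those called with at least 2-fold change or in every fit leaving out 1 library, the 6 highest per kilobase, studied LINC genes, those next to the level filter, and the 3 whose MEK5DD libraries differed most. LINC02210, renamed members, members reaching the filter in 1 group, the genes around called members and the named neighbours of other members were chosen after their values were seen. Alternatives were other pseudocounts, filters, scalings, variance models, a replicate block, leaving out each library in turn, edgeR 4.0.16 and DESeq2 1.42.0 on recovered reads.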

Additional observations from a re-analysis of the deposited data

How the results depend on the processing

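The 10 called members kept their direction in all 146 alternative fits run on them and their call in 127. The number called (10, with 5 higher, 5 lower and 8 at least 2-fold) was 6 (3, 3 and 4) with a mean of at least 50, and 5 (2, 3 and 5) without the mean-variance trend. By DESeq2 on recovered reads it was 6, with 2 lower and 5 at least 2-fold. Leaving out 1 library gave 6 to 23 members, 4 to 10 higher, 2 to 13 lower and 5 to 10 at least 2-fold; the 17 without MEK5DD replicate 1 and 23 without MEK5DD replicate 2 rest on a lone library assumed to vary like the WT pair. All genes called (2226) were 439 without the trend, 1358 by DESeq2 and 1160 to 4629 with 1 library left out. A replicate block gave 16 members (8 higher, 8 lower) and 3349 genes. Deviations of same-numbered libraries from their group means had a correlation of 0.047 over the tested genes. The labels do not say whether same-numbered libraries share a culture or preparation. That correlation cannot decide it, since it could miss a batch that touched only some genes. The cause of these shifts was not tested.

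Reversals touched only members that were not called. LINC00116 turned to 0.0192 and LINC01091 to 0.024 with quantile normalisation, and LINC01545 to 0.0012 with pseudocount 5 and 0.19 by edgeR. Leaving out 1 library gave log2 fold changes of -0.0645 to 0.0483 for LINC00116, -0.15 to 0.27 for LINC00339, -0.37 to 0.50 for LINC00598, -0.80 to 0.0082 for LINC00630, -0.0814 to 0.0185 for LINC00678, -0.48 to 0.95 for LINC00854, -0.22 to 0.39 for LINC01021, -0.41 to 0.24 for LINC01091, -0.44 to 0.17 for LINC01194, -0.82 to 0.71 for LINC01545, -0.78 to 0.23 for LINC01670, -0.62 to 0.11 for LINC01876 and -0.29 to 0.88 for LINC02043. Start windows at GENCODE starts were not run, since no genome sequence was used here.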
